A study of Rattus norvegicus with 252 samples.

Results

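Cortex-enriched genes of the rat brain were followed over 4 brain regions, 3 ages and both genotypes of a Huntington disease model. They were chosen from wild-type libraries of 2 months as genes with a mean count of at least 10, a mean cortical level of at least 0 on the log2 CPM scale, and a mean cortical level at least 2 log2 units above that of the striatum, of the hippocampus and of the cerebellum. CPM scales the count of a gene to the total count of its library. The rule found 59 genes among 15776 that passed the count minimum, out of 32883 listed. RNA was sequenced from Long Evans rats that were heterozygous for the Q130 knock-in (Q130) or wild type (WT), aged 2, 6 or 12 months, and no other allele or treatment is given. Each of 60 animals gave all 4 tissues, which makes 24 groups of 10 libraries from 5 males and 5 females. The libraries of 2 and 6 months were of batch 1 and those of 12 months of batch 2, so age and batch cannot be told apart at 12 months. The deposited tables hold Ensembl identifiers without names, and none of the 59 was matched to a name, so genes are given by identifier, no function is attached to them, and whether the members are neuronal or which cortical cells hold them was not determined.

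The cerebral cortex is a layered sheet of excitatory projection neurons, inhibitory interneurons and glia, and its projection neurons send the main excitatory input to the striatum. In Huntington disease an expanded glutamine repeat in huntingtin damages striatal neurons first, and cortical neurons that project to them are also affected. Genes with much higher RNA levels in cortex than in other regions can serve as a readout of cortical identity in a dissected sample. In bulk tissue, fewer cells of a type and less RNA per cell cannot be told apart.

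Total counts ran from 25.3 M to 50.8 M per library with a median of 34.3 M. The labels were checked by the correlation of each library with the others of its tissue. In 9 libraries the median correlation was under 0.97, and 8 of these were Q130 libraries. The library labelled Q130 striatum 6 months male 1 had the hippocampus-enriched genes at a mean of 3.16 log2 CPM and the striatum-enriched genes at 0.592, whereas the library labelled Q130 hippocampus 6 months male 5 had them at -0.54 and 4.16, so both went against their labels. By their labels both libraries came from the same animal, although their replicate numbers differ. Whether the tissue labels of that animal were exchanged was not tested. The library labelled Q130 striatum 12 months female 2 held both sets at once, at 2.22 for hippocampal and 2.55 for striatal genes. Among cortical libraries, those labelled WT 6 months male 4 (median correlation 0.922) and Q130 12 months male 4 (0.895) stood apart. The targeted gene could not be looked up by name, so the genotype labels were not checked through it.

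In the WT libraries of 2 months that chose them, the 59 genes spanned cortical means of 0.07 to 9.60 log2 CPM with a median of 2.09. Of these, 20 were at 4 or more, 21 between 1 and 4, and 18 under 1. The difference between cortex and the next highest tissue, which the rule set at 2 or more, had a median of 2.58 and a maximum of 4.94 log2 units. The next highest tissue was the hippocampus for 34 genes, the striatum for 19 and the cerebellum for 6. The genes nearest the threshold were ENSRNOG00000051725 (2.01) and ENSRNOG00000000383 (2.00) inside it, and ENSRNOG00000029939 (1.99) and ENSRNOG00000062221 (1.99) outside it, all 4 picked by these values. The values describe the choice and are not a result.

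**Figure D1:**
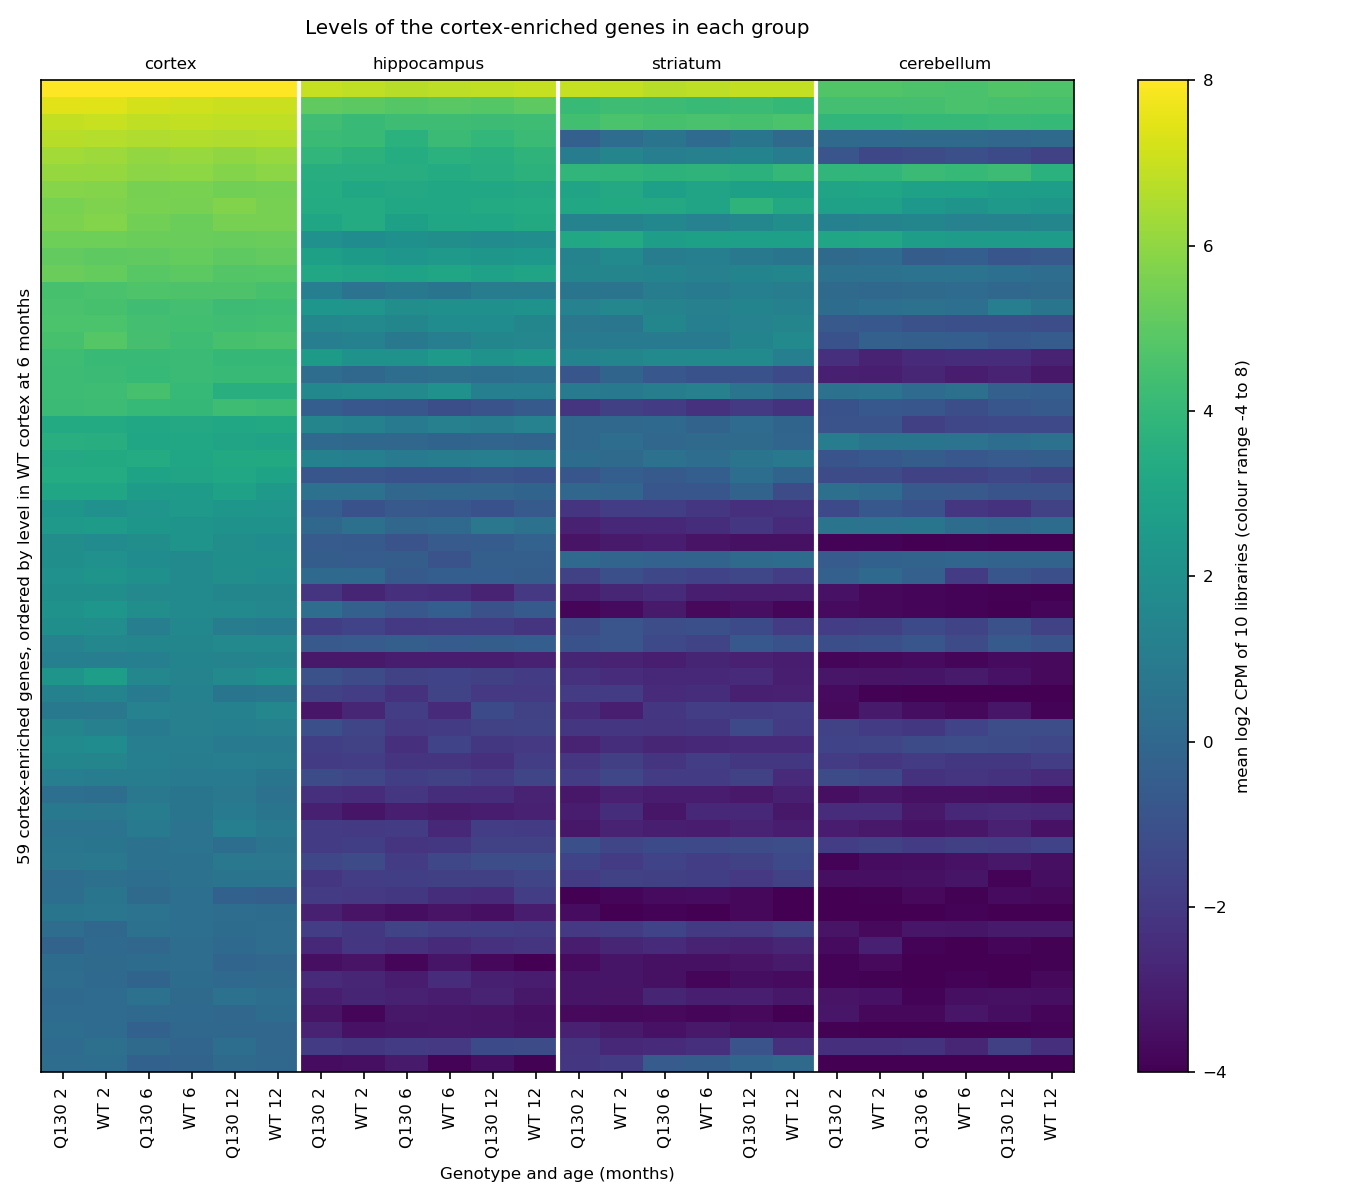
Mean log2 CPM of each of the 59 genes (rows, ordered by level in WT cortex at 6 months) in the 24 groups of 10 libraries (columns), with the tissue above and genotype and age below. The 6 cortical columns are the brightest in nearly every row, and in the last row, ENSRNOG00000024028, the striatal columns of 6 and 12 months come close to the cortical ones.

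Per transcript length, 1 member far exceeded the others. ENSRNOG00000033134 averaged 222 ± 31.9 TPM (SD, n = 10) in WT cortex at 6 months, where TPM is a share of all transcripts, corrected for length. That was 23.7% of the 936 TPM that all 59 members summed to, and this sum was 0.0936% of all transcripts. The next member, ENSRNOG00000004805, averaged 89.5 ± 17.0 TPM (SD, n = 10). The median member was at 4.42 TPM, with 21 members over 10 TPM, 31 between 1 and 10, and 7 under 1. Both genes were chosen here for their level.

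Enrichment in cortex held in almost all members in libraries that the rule had not used. Each set of 40 libraries of a genotype and age was tested with the animal as a block, and a gene was called when it was higher in cortex than in each of the other tissues at a Benjamini-Hochberg adjusted p under 0.05 in edgeR's quasi-likelihood test, adjusted over all genes. In Q130 rats of 2 months 59 of 59 members were called, against 8.72% of 16768 genes tested. In Q130 rats of 6 and 12 months 58 of 59 were called, against 7.83% of 16802 and 7.25% of 16680 genes. In WT rats of 6 and 12 months 58 of 59 were called as well, against 9.28% of 16717 and 10.3% of 16559 genes. In Q130 rats of 2 months the median log2 fold change of the members was 2.64 against hippocampus, 3.76 against striatum and 4.45 against cerebellum. In the same 5 sets of libraries 49, 49, 45, 49 and 45 members still met both thresholds of the rule, in Q130 rats of 2, 6 and 12 months and WT rats of 6 and 12 months. The counts were 58 or 59 in 4 of these sets without the libraries that stood apart, which WT rats of 12 months did not have.

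ENSRNOG00000030111, chosen after its values were seen, had the largest difference to the next tissue in all 5 sets, between 4.58 and 5.10 log2 units. In cortex it lay between 14.9 and 20.3 CPM in Q130 rats of 2 months, with a median of 18.8. In the same rats it lay between 0.271 and 1.29 CPM in hippocampus, 0.0582 and 0.333 CPM in striatum, and 0.263 and 0.658 CPM in cerebellum. No library of another tissue came near the lowest cortical one. ENSRNOG00000033134, the most abundant member, was less selective. It lay between 670 and 848 CPM in Q130 cortex of 2 months (median 742), 100 and 157 CPM in hippocampus (median 117), 109 and 133 CPM in striatum (median 124), and 22.6 and 33.9 CPM in cerebellum (median 26.9).

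The exception in each of the 4 sets with 58 calls was ENSRNOG00000024028, singled out after its values were seen, which lost its difference from striatum after 2 months. In Q130 striatum it had a lowest, median and highest value of 0.0513, 0.177 and 0.477 CPM at 2 months, 0.0766, 0.715 and 1.58 CPM at 6 months, and 0.141, 0.871 and 6.81 CPM at 12 months. WT striatum gave 0.115, 0.172 and 0.422 CPM at 2 months, 0.215, 0.706 and 1.14 CPM at 6 months, and 0.561, 1.002 and 2.89 CPM at 12 months. The striatal medians of 6 and 12 months were above the highest library of 2 months in both genotypes, although the ranges of 2 and 6 months overlapped. The WT libraries of 2 months were among those that chose the gene as low in striatum. Of the values of 2 months, only those of Q130 rats are free of that choice. The Q130 range of 6 months includes the library labelled Q130 striatum 6 months male 1, which went against its label.

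In cortex the medians of ENSRNOG00000024028 at 2, 6 and 12 months were 1.16, 0.750 and 1.08 CPM in Q130 rats and 1.18, 0.853 and 0.966 CPM in WT rats. In hippocampus it stayed at 0.132 CPM or less in every library but 1, the Q130 library of 6 months that went against its label (1.07 CPM), and in cerebellum it was at 0.026 CPM or less. Cortex minus striatum was 2.58 ± 0.34 (log2 fold change, SE) in Q130 rats of 2 months (adjusted edgeR p = 7.96e-08). It was 0.10 ± 0.45 in Q130 rats of 6 months (adjusted edgeR p = 0.853), 0.16 ± 0.32 in Q130 rats of 12 months (adjusted edgeR p = 0.681), 0.23 ± 0.29 in WT rats of 6 months (adjusted edgeR p = 0.486) and -0.21 ± 0.22 in WT rats of 12 months (adjusted edgeR p = 0.388).

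**Figure D2:**
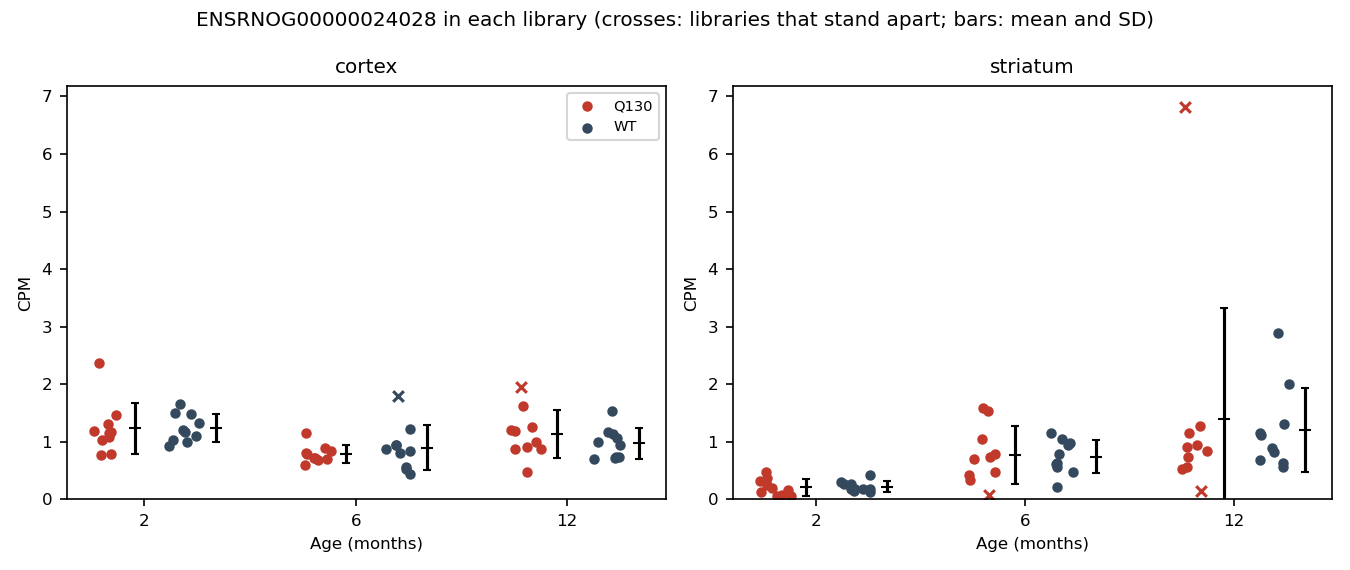
CPM of ENSRNOG00000024028 in every library of cortex and striatum by age in months, with Q130 left of WT, crosses for libraries that stood apart, and bars for the mean and SD of 10 libraries. Striatal values of 2 months are at most 0.477 CPM, and from 6 months on most striatal libraries reach the cortical range. The WT libraries of 2 months are among those that chose the gene.

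Between 2 and 6 months 18 of the 59 cortex-enriched genes changed in Q130 cortex, and 41 did not pass the test. Of the 59 members 15 were lower and 3 higher at 6 than at 2 months, which is 25.4% and 5.08%. Over all 15759 genes 4.89% were lower and 3.85% higher, 8.74% in all (edgeR quasi-likelihood F test with Benjamini-Hochberg adjustment). By estimate 44 of 59 members were lower, with a median log2 fold change of -0.15, against 0.01 for all genes. Both ages belonged to batch 1, and the rule had used none of these 20 libraries. Members chosen at 2 months may favour genes that were high at that age. With the 53 genes that met the same thresholds in WT libraries of 6 months, 12 were lower and 4 higher, with a median of -0.11. When single libraries were left out, 13 to 18 members were called.

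The genes with the smallest adjusted p were named. ENSRNOG00000039048 had 6.90, 7.83 and 9.01 CPM at 6 months as lowest, median and highest of 10 Q130 libraries, against 8.49, 10.5 and 12.4 CPM at 2 months. The ranges overlapped narrowly, and it fell by 0.43 ± 0.07 on the log2 scale (SE, adjusted edgeR p = 0.000237). ENSRNOG00000019851 had 1.71, 2.24 and 2.64 CPM at 6 months, against 2.43, 3.87 and 6.53 CPM at 2 months, again with a narrow overlap. Its log2 fold change of -0.88 ± 0.14 was the lowest among the members (SE, adjusted edgeR p = 0.000291). Among the 3 that rose, ENSRNOG00000016750 had 1.63, 2.38 and 3.51 CPM at 6 months, against 1.53, 1.77 and 1.94 CPM at 2 months (0.48 ± 0.12 log2 units, SE, with an adjusted edgeR p of 0.0138).

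ENSRNOG00000019467 had 1.06, 1.34 and 2.05 CPM at 6 months, against 0.788, 1.04 and 1.36 CPM at 2 months (0.45 ± 0.12 log2 units, SE, with an adjusted edgeR p of 0.0248). The third gene that rose, ENSRNOG00000018606, named after its values were seen, changed by 0.19 ± 0.06 (log2 fold change, SE; adjusted edgeR p = 0.0441). ENSRNOG00000033134, described for its abundance, had 576, 628 and 737 CPM at 6 months, against 670, 742 and 848 CPM at 2 months. Its ranges overlapped, and it fell by 0.22 ± 0.05 on the log2 scale (SE, adjusted edgeR p = 0.00365).

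**Figure D3:**
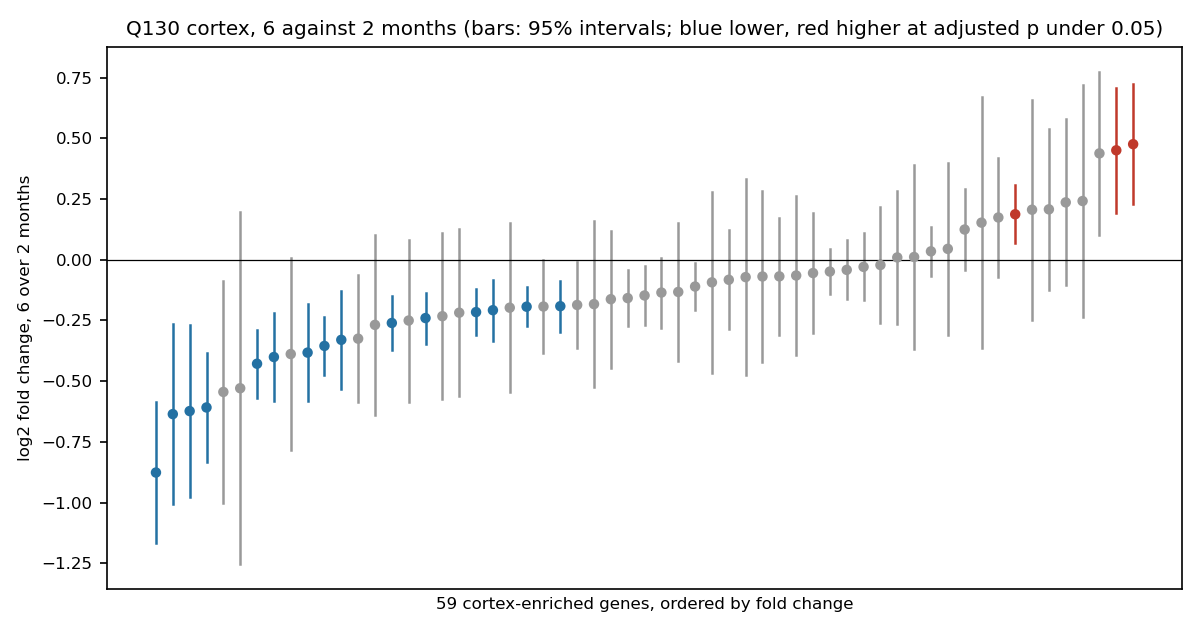
Log2 fold change of 6 over 2 months in Q130 cortex for each of the 59 genes, ordered by size, with 95% intervals, blue for the 15 called lower and red for the 3 called higher. Points below 0 outnumber those above it, 44 to 15.

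Averaged over the 59 genes, the level was 2.63 ± 0.06 log2 CPM (SD, n = 10) in Q130 cortex of 6 months and 2.77 ± 0.04 (SD, n = 10) in Q130 cortex of 2 months. The libraries of 6 months ran from 2.54 to 2.72 and those of 2 months from 2.72 to 2.83, so the highest of 6 months and the lowest of 2 months met. The striatum-enriched genes in the same Q130 cortical libraries averaged between 0.700 and 0.994 log2 CPM at 6 months and between 0.537 and 0.940 at 2 months. Hippocampus-enriched genes averaged between -0.14 and 0.08 at 6 months and between -0.23 and 0.08 at 2 months, and cerebellum-enriched genes between 0.440 and 1.06 at 6 months and between 0.363 and 0.668 at 2 months. The part of dissection in the age result was not tested. No first part of the animal identifiers was shared between ages, so age cannot be told apart from whatever that part stands for.

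**Figure D4:**
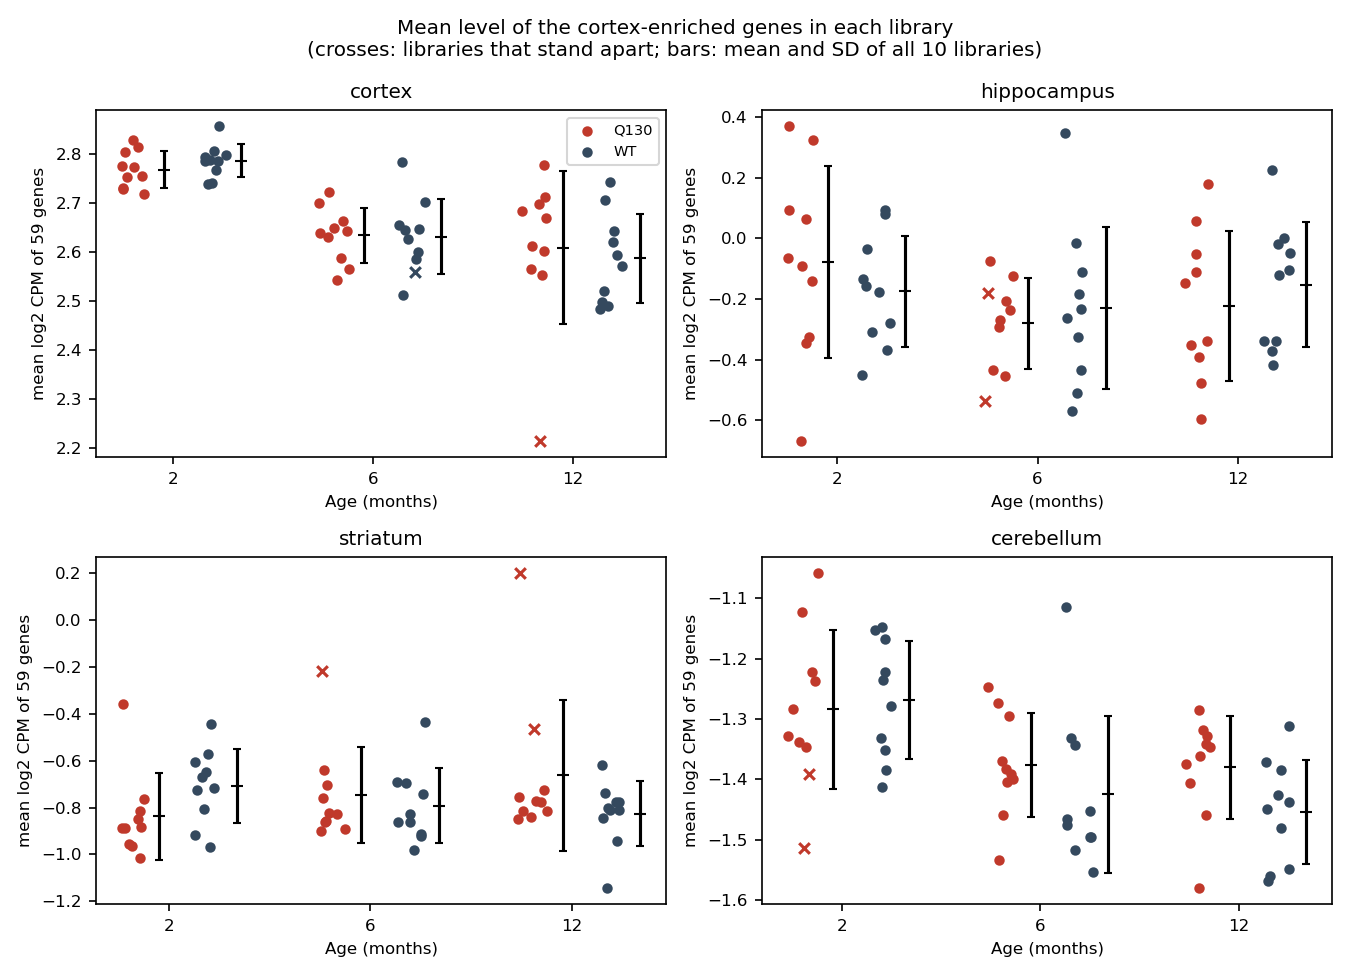
Mean log2 CPM of the 59 genes in every library of the 4 tissues (separate y axes) by age in months, with Q130 left of WT, crosses for libraries that stood apart, and bars for the mean and SD of 10 libraries. In Q130 cortex the libraries lie between 2.72 and 2.83 at 2 months and between 2.54 and 2.72 at 6 months, and the WT libraries of 2 months are those that chose the genes.

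In WT cortex the same age step was tested with 54 genes that met the thresholds in Q130 libraries of 2 months, since the rule's own genes were chosen on the WT ones. Of the 54 genes 7 were lower and 0 higher at 6 than at 2 months, which is 13.0% lower, against 1.87% lower among 15756 genes (edgeR quasi-likelihood F test). The median log2 fold change was -0.14, and 42 of 54 estimates were lower. Without the library WT 6 months male 4, 16 were lower and 2 higher, against 5.81% lower and 4.81% higher among 15810 genes in that fit. For the 59 genes of the rule, given only as a description, 45 estimates were lower and the median was -0.10.

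ENSRNOG00000002548 had 1.52, 2.27 and 2.58 CPM at 6 months as lowest, median and highest WT library, against 2.86, 3.33 and 4.69 CPM at 2 months. No library of 6 months reached the lowest of 2 months, and the log2 fold change was -0.72 ± 0.11 (SE, adjusted edgeR p = 0.000791). ENSRNOG00000014414 had 1.04, 2.78 and 5.14 CPM at 6 months, against 4.24, 6.32 and 8.37 CPM at 2 months (-1.17 ± 0.22 log2 units, SE, with an adjusted edgeR p of 0.00340). Its ranges overlapped. The genes called lower in both genotypes, chosen after their values were seen, were ENSRNOG00000002548, ENSRNOG00000012660, ENSRNOG00000014010, ENSRNOG00000030763 and ENSRNOG00000033134, 5 of the 15 in Q130 and of the 7 in WT cortex. Whether the step differed between genotypes was not tested.

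From 6 to 12 months, where age and batch cannot be told apart, few members changed. In Q130 cortex 1 was higher and 1 lower of 59, which compares with 0.813% higher and 1.51% lower, 2.32% in all, among 15621 genes. ENSRNOG00000030111 had 14.5, 19.99 and 21.7 CPM at 12 months, against 14.5, 16.4 and 18.0 CPM at 6 months (0.24 ± 0.06 log2 units, SE, with an adjusted edgeR p of 0.0347), and its ranges overlapped. This call was lost without the count filter (adjusted edgeR p = 0.0557). ENSRNOG00000048187 had 7.49, 12.3 and 16.1 CPM at 12 months, against 15.5, 21.7 and 30.7 CPM at 6 months, with a narrow overlap (-0.95 ± 0.16 log2 units, SE, with an adjusted edgeR p of 0.00580).

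For 12 animals the striatum was sequenced again in batch 2. ENSRNOG00000048187 was lower there in the repeat library of all 12 animals, with a lowest, median and highest value of 0.575, 0.907 and 1.66 CPM, against 1.13, 2.24 and 3.53 CPM in the first libraries. Its log2 fold change of -1.17 between batches (adjusted edgeR p = 0.000389) stands beside the -0.95 between ages, and it was the 1 member called between batches of 39 tested, against 3.87% of 16380 genes. In WT cortex 0 of 59 members were called from 6 to 12 months, against 0.301% higher and 0.167% lower, 0.468% in all, of 15614 genes. At an unadjusted p under 0.05 in edgeR were 8 of the 59 members and 1675 of the 15614 genes. DESeq2 called 1 member, and its share over all genes is not given here. Without the library WT 6 months male 4, 2 were called lower, against 1.47% lower among 15674 genes in that fit. Of the 15 members that fell from 2 to 6 months in Q130 cortex, 0 were called lower from 6 to 12 months in either genotype. Over all genes 236 of 15621 were called lower at that step in Q130 cortex, and 0.167% of 15614 in WT cortex. By estimate 11 of the 15 were lower again in Q130 cortex, against 45.0% over all genes.

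The step from 2 to 6 months was also tested in the other tissues of Q130 rats. In striatum 33 of the 59 genes passed the count filter, and 2 were higher and 1 lower at 6 months, against 4.27% higher and 3.32% lower among 15774 genes. Without the library labelled Q130 striatum 6 months male 1, 3 were higher and 3 lower, against 9.59% higher and 8.53% lower among 15794 genes in that fit. ENSRNOG00000024028 rose by 1.86 ± 0.44 log2 units (SE, adjusted edgeR p = 0.0118), with the striatal values given above, whereas in Q130 cortex it was 1 of the 15 that fell (-0.64 ± 0.18 log2 units, SE, adjusted edgeR p = 0.0280). The cortical call was lost when Q130 2 months female 4, Q130 6 months male 3 or Q130 6 months male 5 was left out (adjusted edgeR p = 0.0548, 0.0531 and 0.0513). ENSRNOG00000013681 had 1.54, 3.07 and 4.45 CPM in striatum at 6 months, against 1.05, 1.79 and 2.75 CPM at 2 months (0.77 ± 0.19 log2 units, SE, with an adjusted edgeR p of 0.0168). ENSRNOG00000012660 had 0.316, 0.532 and 0.894 CPM at 6 months, against 0.365, 0.988 and 1.33 CPM at 2 months (-0.80 ± 0.20 log2 units, SE, with an adjusted edgeR p of 0.0173). The ranges of all 3 genes overlapped between ages, and those of 6 months include the library labelled Q130 striatum 6 months male 1, which went against its label.

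In cerebellum 6 of 34 members tested were lower at 6 months and 0 higher, against 4.13% lower and 2.5% higher among 15599 genes. These values include the libraries Q130 cerebellum 2 months male 1 and male 2, which stood apart (median correlations 0.954 and 0.945). ENSRNOG00000012660 had 0.371, 0.655 and 0.978 CPM in cerebellum at 6 months, against 0.956, 1.38 and 1.89 CPM at 2 months (-1.08 ± 0.15 log2 units, SE, with an adjusted edgeR p of 0.000149). ENSRNOG00000045558 had 4.11, 5.18 and 6.13 CPM at 6 months, against 5.69, 7.40 and 8.43 CPM at 2 months (-0.50 ± 0.08 log2 units, SE, with an adjusted edgeR p of 0.000265). Both ranges overlapped narrowly. ENSRNOG00000012660 was thus lower at 6 months in Q130 cortex, striatum and cerebellum, and in WT cortex. In hippocampus edgeR called 0 of 41 members, against 1.01% of 15718 genes. DESeq2 called 1, and its share over all genes is not given here. At an unadjusted p under 0.05 in edgeR were 8 of the 41 members and 1893 of the 15718 genes. Of the 41 estimates 34 were lower, with a median of -0.23, against 49.4% lower and a median of 0.00 over all genes. These values include the libraries labelled Q130 hippocampus 6 months male 3 and male 5, which stood apart, the latter going against its label.

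The difference between tissues was tested directly for cortex and striatum. The change from 2 to 6 months in Q130 cortex minus that in Q130 striatum passed the adjusted threshold for 2 of 59 members, against 0.394% of 16984 genes. Of the 59, 26 did not pass the count filter in striatum alone, and both called genes were among the 33 that did. These were ENSRNOG00000024028 (-2.35 ± 0.49 SE, adjusted edgeR p = 0.0286) and ENSRNOG00000013681 (-0.97 ± 0.21 SE, adjusted edgeR p = 0.0365). Without the count filter the call of ENSRNOG00000013681 was lost (adjusted edgeR p = 0.0507). The fit includes the library labelled Q130 striatum 6 months male 1, which went against its label. Without the libraries that stood apart the difference was -2.53 for ENSRNOG00000024028 (adjusted edgeR p = 0.00265). For ENSRNOG00000013681 it was -0.96 in that fit (adjusted edgeR p = 0.0300). ENSRNOG00000013681 in cortex had 18.3, 20.2 and 27.7 CPM at 6 months, against 20.1, 24.1 and 31.7 CPM at 2 months.

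Genes enriched in another tissue, chosen by the same thresholds, were set beside these for the same age step in their own tissue. Of 98 striatum-enriched genes tested in Q130 striatum 1 was higher and 1 lower, against 4.27% and 3.32% of all genes there. Their median log2 fold change was -0.28, and 87 estimates were lower, against 47.0% over all genes. Of 55 hippocampus-enriched genes 0 were higher and 1 lower, against 0.604% and 0.407% of all genes in hippocampus. Their median was -0.11, and 42 estimates were lower, against 49.4% over all genes. Of 273 cerebellum-enriched genes 7 were higher and 19 lower, against 2.5% and 4.13% of all genes in cerebellum. Their median was 0.00, and 137 estimates were lower, against 50.6% over all genes. The cerebellar counts and median include the libraries of 2 months male 1 and male 2, which stood apart. The striatal and hippocampal counts and medians include the libraries that went against their labels. Without the striatal one, 9.59% of all genes were higher and 8.53% lower, and the striatum-enriched genes were not counted again. The difference between these sets and the cortical one was not tested.

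Between genotypes no cortex-enriched gene passed the threshold in cortex at any age by edgeR's quasi-likelihood F test with adjusted p under 0.05 over all genes. At 6 months 0 of 59 members were called in either direction, against 0% of 15757 genes, with 3 members and 980 genes at an unadjusted p under 0.05. At 12 months 0 of 59 were called, against 0% of 15491 genes, with 2 members and 640 genes at an unadjusted p under 0.05. At 2 months, with the 53 genes chosen at 6 months, 0 were called, against 0.00636% of 15730 genes. At an unadjusted p under 0.05 were 3 of these 53 and 367 of all genes. DESeq2 also called 0 members at each of the 3 ages. The median log2 fold change of Q130 over WT was 0.00 at 2 months, -0.02 at 6 months and 0.01 at 12 months.

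A difference of 1.5-fold in either direction lay outside the 95% interval of 44 of 59 members at 6 months and 46 of 59 at 12 months, and the intervals of the other members reached past it. The mean over the 59 genes was 2.63 ± 0.06 log2 CPM in Q130 cortex and 2.63 ± 0.08 in WT cortex at 6 months (SD, n = 10 each). At 12 months it was 2.61 ± 0.16 in Q130 cortex and 2.59 ± 0.09 in WT cortex (SD, n = 10 each), and 2.65 ± 0.07 in the 9 Q130 libraries without the library of male 4, which was at 2.21. At 6 and 12 months the genotypes shared hardly any or no first part of the animal identifiers, so genotype cannot be told apart from it there.

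**Figure D5:**
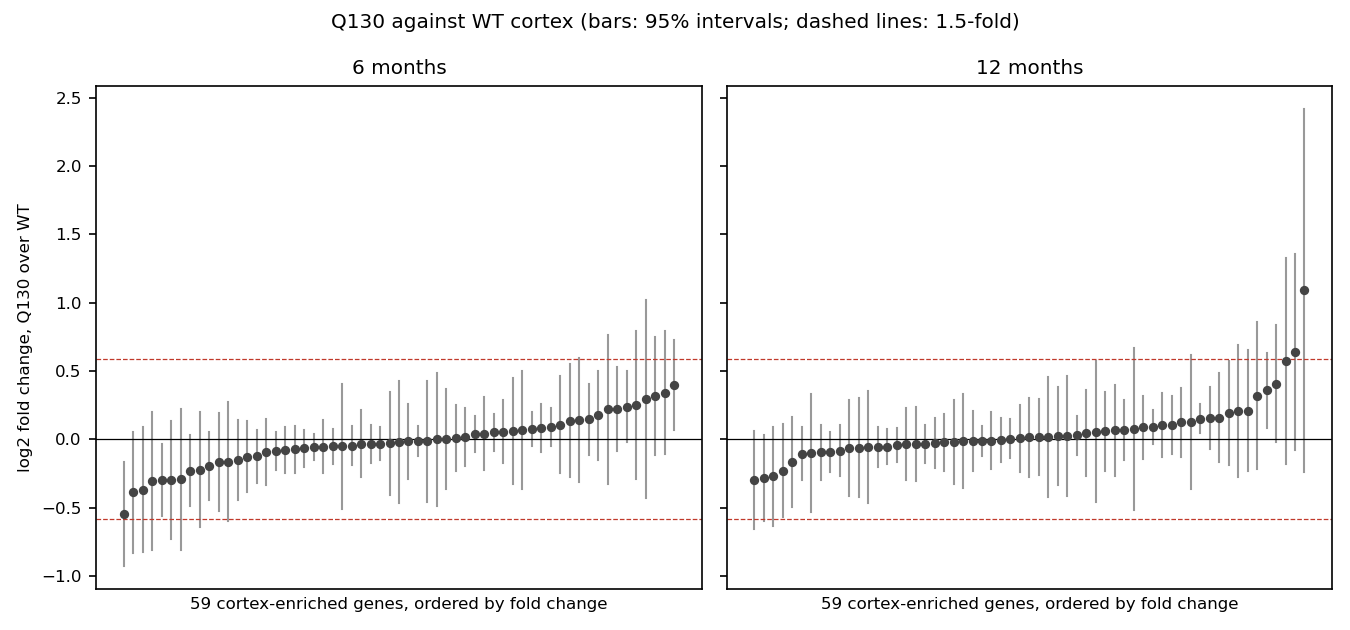
Log2 fold change of Q130 over WT in cortex at 6 months (left) and 12 months (right) for each of the 59 genes, ordered by size within each panel, with 95% intervals and dashed lines at 1.5-fold. No gene passed the adjusted threshold, and the widest intervals reach 1.02 at 6 months and 2.42 at 12 months.

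ENSRNOG00000019851, chosen after its values were seen, had the lowest estimate at 6 months. It had 1.71, 2.24 and 2.64 CPM in Q130 cortex as lowest, median and highest library, against 1.92, 2.76 and 7.04 CPM in WT cortex, where the highest value was that of male 4 and the next was 3.71 CPM. The log2 fold change was -0.54 ± 0.18 (SE, adjusted edgeR p = 0.709) and -0.34 without that library. The difference between its Q130 effects, 12 months minus 6 months, was 0.65 ± 0.21 (log2, SE, adjusted edgeR p = 0.876). By this test of genotype by age 0 of 59 members and 0% of 15919 genes were called, and DESeq2 called 0 members. At an unadjusted p under 0.05 in edgeR were 2 members and 743 genes.

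In the other tissues the genotypes differed in 2 tests of single members. In striatum at 2 months 1 of 26 tested genes of the list from 6 months was lower in Q130 rats, against 1.53% lower and 1.11% higher among 15747 genes. This gene, ENSRNOG00000027230, had 18.2, 20.8 and 22.4 CPM in Q130 striatum, against 20.9, 23.5 and 27.1 CPM in WT striatum (-0.21 ± 0.04 log2 units, SE, with an adjusted edgeR p of 0.0218), and its ranges overlapped. The median over the 26 genes was -0.21, and 20 of 26 estimates were lower, against a median of -0.002 and 50.9% lower over all genes. At an unadjusted p under 0.05 in edgeR were 9 of the 26 and 3052 of all 15747 genes. In a fit over all 60 striatal libraries ENSRNOG00000027230 was not called.

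In cerebellum at 12 months 1 of 32 tested members was higher in Q130 rats, against 0.832% higher among 15382 genes. ENSRNOG00000037435 had 11.5, 19.99 and 23.7 CPM in Q130 cerebellum, against 9.99, 11.5 and 19.1 CPM in WT cerebellum (0.57 ± 0.13 log2 units, SE, with an adjusted edgeR p of 0.0440). The ranges overlapped, and the call was lost without the count filter and in a fit over all 60 cerebellar libraries. In that tissue at the younger ages the same gene had medians of 14.5 CPM in Q130 and 14.4 CPM in WT rats at 2 months, and 19.2 CPM in Q130 and 15.8 CPM in WT rats at 6 months.

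In the remaining comparisons of genotypes edgeR called 0 members, and DESeq2 also called 0. In striatum these were 33 members at 6 months and 32 at 12 months, against 0% of 15812 and 0% of 15658 genes. At an unadjusted p under 0.05 in edgeR were 1 and 5 members, against 609 and 1536 of all genes. In hippocampus they were 34, 40 and 36 genes at 2, 6 and 12 months, against 0% of 15711, 15702 and 15567 genes. Of these 2, 1 and 2 had an unadjusted p under 0.05, against 975, 528 and 711 of all genes. In cerebellum they were 30 genes at 2 months and 32 at 6 months, against 0% of 15582 and 0.0709% of 15513 genes (0.00645% higher and 0.0645% lower), with 1 and 3 at an unadjusted p under 0.05. A fit over all 60 striatal libraries called 5 of 39 tested members higher in Q130 striatum at 12 months, against 6.25% higher among 16181 genes in that fit, where the libraries of male 3 and female 2 stood apart with members' means of -0.47 and 0.20 log2 CPM, above the range of the other 8 (-0.85 to -0.73).

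Between males and females 0 of 59 members were called in cortex at 6 months, against 0.171% of 15757 genes (0.0825% higher and 0.0888% lower in males), and 0 of 59 at 12 months, against 0.0775% of 15491 genes (edgeR quasi-likelihood F test). At an unadjusted p under 0.05 there were 5 and 8 members, against 1217 and 1376 of all genes, and DESeq2 called 0 members at both ages. At 12 months 44 of 59 estimates were lower in males, with a median log2 difference of -0.11, against 47.2% lower estimates over all genes. Without the library Q130 12 months male 4 the count was again 44 of 59, with a median of -0.09, against 50.3% over all genes, and at 6 months 27 of 59 were lower, with a median of 0.02.

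The spread of the members among animals of a group went with their level. Over the 58 cortical libraries that did not stand apart, the median SD within groups was 0.148 log2 units for the 27 members at 2 log2 CPM or more and 0.350 for the 32 members under it. The median was 0.124 for the 13980 genes at 0 log2 CPM or more, not matched for level, and 9 members, all above 4 log2 CPM, lay under it. The SD ran from 0.0870 in ENSRNOG00000045558 to 0.634 in ENSRNOG00000014414. ENSRNOG00000009542 and ENSRNOG00000007528 were chosen after their values were seen as the pair that moved most closely together among the 27 members at 2 log2 CPM or more. Their correlation was 0.97, against a median of 0.10 over the 351 pairs of these members, of which 13 were over 0.5. Both genes had their lowest cortical values in WT 6 months male 4, at 3.85 and 5.55 CPM, a library that stood apart and was not among the 58. Their next lowest values were both in Q130 2 months male 4, at 7.66 and 17.7 CPM, and their highest both in WT 2 months male 1, at 38.03 and 68.5 CPM. In Q130 cortex of 2 months their medians were 25.9 and 55.4 CPM, against 27.5 and 52.5 CPM in WT cortex of 2 months.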

How the data were processed

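Per the labels' protocols, tissue was frozen on dry ice, and libraries followed Illumina methods, starting from 3.75 ug of total RNA or more, from which subfractions were enriched. Aligner, counter and build: not given in the sources used here. Estimated counts per gene were deposited by the authors, with 8.19% of values not whole, and were rounded here. A deposited table of per-length values labelled FPKM sums in each library to the total of TPM, so TPM is the unit used for it. Fits used edgeR 4.0.16 in R 4.3.3 (filterByExpr, TMM, robust quasi-likelihood F test, sex as covariate, or the animal as a block between tissues or batches), with Benjamini-Hochberg adjustment over all genes, and were tested on simulated data. Log2 CPM used a prior count of 2. DESeq2 1.42.0, limma 3.58.1, other scaling, filters and left-out libraries were alternatives. The members and lists were chosen with earlier results of these data known. Columns named with dots were taken as the repeat libraries, an inference from their names. Marker lists and promoter motifs need names and were not applied. The identifiers named were those with the smallest adjusted p, at most 2 in each direction, and others are said to be chosen after their values were seen. Replicates were separate animals, and p-values measure the spread between them. Where the animal was a block, they measure the spread left after the animals' own levels were removed.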

Additional observations from a re-analysis of the deposited data

Results flagged for a closer look

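Of 114 groups of 10 libraries examined for a value far from the rest, 18 held one, where chance gives about 1 in 20. The groups share libraries and are not independent. These were 5 of 24 groups for the members' mean and 13 of 90 groups for named members in cortex. The members' mean was low in the library Q130 cortex 12 months male 4 (2.21 log2 CPM, next 2.55). It was high in Q130 striatum 12 months female 2 (0.201, next -0.47), Q130 striatum 6 months male 1 (-0.22, next -0.64), Q130 striatum 2 months male 5 (-0.36, next -0.76) and WT cerebellum 6 months male 4 (-1.11, next -1.33).

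In the library Q130 cortex 12 months male 4, ENSRNOG00000039048 was at 53.1 CPM (next 8.42) and ENSRNOG00000012660 at 33.65 CPM (next 8.11), whereas ENSRNOG00000027230 was at 78.2 CPM (next 111), ENSRNOG00000037435 at 29.9 CPM (next 53.0) and ENSRNOG00000013681 at 10.4 CPM (next 19.6). ENSRNOG00000012660 was also at 36.7 CPM in the library Q130 striatum 12 months male 3, where the group's median was 0.549 CPM. In WT cortex 6 months male 4, ENSRNOG00000039048 was at 11.5 CPM (next 8.95) and ENSRNOG00000019851 at 7.04 CPM (next 3.71), and ENSRNOG00000045558 was at 28.3 CPM (next 45.7). In Q130 cortex 2 months male 4, ENSRNOG00000024028 was at 2.36 CPM (next 1.46) and ENSRNOG00000012660 at 5.38 CPM (next 7.49). The last 3 were ENSRNOG00000024028 in Q130 cortex 6 months female 2 (1.15 CPM, next 0.883), ENSRNOG00000030111 in WT cortex 2 months male 2 (23.1 CPM, next 19.8) and ENSRNOG00000037435 in WT cortex 2 months female 5 (86.2 CPM, next 72.1).

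The change from 2 to 6 months differed between Q130 cortex and Q130 striatum, by the edgeR test of the difference, for ENSRNOG00000024028 (-2.35 log2 units) and ENSRNOG00000013681 (-0.97 log2 units), whose call was lost without the count filter.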

How the results depend on the processing

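Among recomputed counts and mean levels that answer a comparison, 267 stayed the same and 14 did not. A count stayed the same if it was within 1.5 times, or again 0. A mean level stayed the same if it moved by less than the SD of the WT libraries. Direction was not compared for these. For single named members, 215 recomputed values kept their direction and call status, and 10 lost the call. A fit over 60 libraries called 0 members in striatum at 2 months (1 before), 5 in striatum at 12 months (0 before) and 0 in cerebellum at 12 months (1 before), where no count filter also gave 0. From 6 to 12 months in Q130 cortex no count filter gave 1 call in place of 2. In WT cortex DESeq2 gave 1 and leaving out the libraries that stood apart 2, in place of 0. From 2 to 6 months DESeq2 gave 14 and leaving out those libraries 18 calls in WT cortex (7 before), the latter 6 in Q130 striatum (3 before), and DESeq2 and no filter 1 each in Q130 hippocampus (0 before). In WT cortex DESeq2 called 6.14% of 15756 genes, and the fit without those libraries 10.6% of 15810. The main edgeR fit called 263 higher and 294 lower among 15756 genes. Cortex minus striatum gave 1 call without the filter (2 before), having lost ENSRNOG00000013681. The cause was not tested. Leaving out single libraries gave 13 to 18 calls from 2 to 6 months in Q130 cortex, and 0 for genotype in cortex.

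Same-numbered animals did not pair, with correlations of -0.15 to 0.31 and 1 to 3 of 10 matching best with their own number. With the number as a replicate block, Q130 cortex gave 14 calls from 2 to 6 months (13 lower, 1 higher) and 1 from 6 to 12 months, where the call of ENSRNOG00000030111 was lost (adjusted edgeR p = 0.109), as were those of ENSRNOG00000024028 from 2 to 6 months in Q130 cortex (0.0554) and ENSRNOG00000013681 in Q130 striatum (0.0733). Without the replicate block of animals, cortex against the other tissues gave 57 to 59 calls. Shares over all genes under these changes of block are not given here.

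Depth limits members under 1 log2 CPM, and outside cortex only 32 to 41 of the 59 passed the count filter in the comparisons that used the rule's own genes.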
